A study of Mus musculus with 4 samples.

Results

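The genes described here are 3 transcription factors of the p53 family (Trp63, Trp53 and Trp73) and 6 genes of growth arrest that are linked with them (Mdm2, Cdkn1a, Cdkn2a, Cdkn2b, Ccng1 and Sfn), followed across the cell classes of adult mouse back skin epidermis. They were listed by name and make up 9 of the 32285 genes counted in the single-cell matrices. The study removed ΔNp63, the p63 isoform that starts from an internal promoter, from basal keratinocytes of the adult. The control mice were DNp63fl/fl, homozygous for the floxed allele without Cre, and the experimental mice were DNp63fl/fl;K14-CreT2, with a tamoxifen-inducible Cre under the keratin 14 promoter, which drives expression in basal keratinocytes and the outer cells of follicles and sebaceous glands. Both genotypes received 200 mg/kg tamoxifen by gavage on each of 5 days, and epidermal cells were taken 1 day or 1 week after ablation from mice of 2 to 17 months. Each of the 4 groups is 1 library: control and experimental (called ablated below) at 1 day, and control and ablated at 1 week.

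With 1 library per group there was no test of any difference, and none is given. Levels are CPM, the UMIs (counted molecules) of a gene summed over the barcodes of a class and scaled to a total of 1000000 UMIs, and each ratio is ablated over control on the log2 scale. The 95% intervals in brackets cover counting error only, exact Poisson for a level and exact binomial for a ratio, and say nothing of the spread between mice. Library chemistry differed between the times, 3′ at 1 day and 5′ at 1 week, so ablated and control levels were compared within a time point only. Where ratios or counts of the 2 times stand side by side, time and kit cannot be told apart and the difference was not tested. The reads of sex-linked genes also differ between the times, as given below. Per the labels the skin was digested with trypsin either cold overnight or warm for a shorter time, and which library had which is not given, so its part in any ratio was not tested. The number of mice behind a library, and which mice shared one, is not given in the labels.

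The libraries held 33552 and 32212 barcodes at 1 day (control, ablated) and 25039 and 18413 at 1 week, with 179736563, 144323031, 88903603 and 68191870 UMIs and a median of 4209.5, 3488, 1298 and 1617 UMIs per barcode. Both libraries of a time point listed some of the same barcodes, 299 at 1 day and 661 at 1 week. The lowest UMI count was 500 in both control libraries but 1368 and 1059 in the ablated ones. Of the 1-day control barcodes, 3066 had more than 15% mitochondrial UMIs, against 350, 173 and 87 in the other libraries. Xist, which is transcribed from the inactive X chromosome of females, had 6 UMIs in each 1-day library while Y-linked genes had 171 and 177 CPM, although the labels give equal numbers of males and females. At 1 week both were read in both libraries, with Xist at 289 (control) and 143 (ablated) and Y-linked genes at 111 and 86.8. The part of sex in the ratios, and in differences between the times, was not tested.

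Barcodes were assigned to classes by marker genes. Keratinocytes made up 29620 and 29927 barcodes at 1 day and 22030 and 16903 at 1 week. Within them the gates were basal, spinous, granular, bulge and outer root sheath, upper follicle and sebaceous, plus keratinocytes of no layer and keratinocytes rich in Krt8 and Krt18 (Krt8-high). The layers filled this class unequally. Basal barcodes were 13961 (control) and 4099 (ablated) at 1 day and 6749 and 2703 at 1 week, and spinous barcodes 5134 and 8326, then 3975 and 1218. A ratio over all keratinocytes therefore compares different mixtures of layers. The Krt8-high gate held 4680 and 843 ablated barcodes but 1 and 0 control barcodes, so it has no control value. It was set last and took its barcodes from the other keratinocyte gates. The ablated layer gates therefore lack such cells, while the control gates lost almost none. The part of this removal in the layer ratios was not tested. Every marker of the 6 layer and follicle gates was detected in its own gate in all libraries, yet the gates are not identical populations: basal markers such as Krt5, Krt14, Col17a1, Itgb4, Dst and Lamb3 are themselves listed p63 targets. In the basal gate the 10 basal markers summed to 20341 (control) and 14543 (ablated) CPM at 1 day, and to 36473 and 29636 at 1 week. In the spinous gate the 12 granular markers summed to 2899 and 10044 at 1 day, and to 2178 and 12019 at 1 week. The 8 upper follicle markers there were 2607 and 3908, then 2637 and 12838. The 10 spinous markers were 64376 and 54789.6, then 52536 and 44755. The part of such differences in the results below was not tested.

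As background, p53 is the stress-activated member of its family and induces genes that halt the cell cycle or start apoptosis. p63 is required for stratified epithelia, and its ΔN isoforms, which lack the N-terminal transactivation domain, maintain basal keratinocytes and can bind many of the same DNA elements as p53. p73 acts in ciliated epithelia and the nervous system among other tissues. Mdm2 is the ubiquitin ligase that degrades p53 and is itself a p53 target. Cdkn1a (p21) blocks cyclin-dependent kinases and is the best known p53 target, and ΔNp63 is known to repress it in keratinocytes. Cdkn2a encodes p16INK4a and p19ARF and Cdkn2b encodes p15INK4b, all linked with senescence. Ccng1 (cyclin G1) is a p53 target that acts with a phosphatase on Mdm2, and Sfn is 14-3-3σ, the epithelial 14-3-3 protein that holds cell cycle regulators in the cytoplasm.

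Promoters that hold a p53-type decamer are shown first, since p53 and p63 bind DNA through elements built of such decamers. The search was for a single decamer and not for a whole element. RefSeq promoter windows (GRCm38.p6) were matched for 8 of the 9 genes, with 11 start sites; Trp63 was not matched. In the 250 bases before each start, the consensus p53 decamer (searched on both strands; the motif is its own reverse complement) was found at 4 starts, belonging to Cdkn1a, Mdm2, Ccng1 and Trp53. Of all 32851 windows of this length, 7.13% held it. In the sequences below, written 5′ to 3′ on the gene's strand with the last base next to the start, capitals mark the decamer.

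Cdkn1a, upstream start, chr17:29090729-29090978, plus strand: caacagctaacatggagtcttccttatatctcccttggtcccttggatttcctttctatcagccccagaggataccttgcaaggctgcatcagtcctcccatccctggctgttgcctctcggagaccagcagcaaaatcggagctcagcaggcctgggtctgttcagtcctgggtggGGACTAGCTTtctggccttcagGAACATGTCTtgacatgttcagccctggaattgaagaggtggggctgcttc

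Mdm2, chr10:117710759-117711008, minus strand: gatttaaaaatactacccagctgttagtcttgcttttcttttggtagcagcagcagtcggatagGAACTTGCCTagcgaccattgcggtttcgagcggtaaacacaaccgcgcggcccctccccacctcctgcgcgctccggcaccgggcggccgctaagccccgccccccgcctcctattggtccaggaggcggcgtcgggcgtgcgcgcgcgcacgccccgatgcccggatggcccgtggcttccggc

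Ccng1, chr11:40755287-40755536, minus strand: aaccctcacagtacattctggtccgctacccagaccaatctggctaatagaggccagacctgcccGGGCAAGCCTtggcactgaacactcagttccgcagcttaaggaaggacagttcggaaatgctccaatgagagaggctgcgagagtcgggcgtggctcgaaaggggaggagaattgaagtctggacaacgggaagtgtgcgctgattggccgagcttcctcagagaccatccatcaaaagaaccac

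Trp53, chr11:69580109-69580358, plus strand: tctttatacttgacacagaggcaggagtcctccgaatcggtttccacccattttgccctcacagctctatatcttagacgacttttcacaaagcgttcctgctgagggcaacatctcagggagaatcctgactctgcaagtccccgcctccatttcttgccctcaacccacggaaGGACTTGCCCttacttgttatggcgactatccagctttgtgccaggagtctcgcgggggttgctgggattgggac

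Counted from the start, the Cdkn1a window holds 2 decamers, which begin at -73 and -51. The Mdm2 decamer begins at -186, that of Ccng1 at -185 and that of Trp53 at -75. The windows of Sfn, Cdkn2a, Cdkn2b, Trp73 and the downstream start of Cdkn1a held no match, which says only that these letters are not in these windows.

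In keratinocytes as a whole Trp63 was more than 2-fold lower after ablation at both times. At 1 week Cdkn2a, which was very sparse, was more than 2-fold higher. Cdkn1a was 0.94 log2 units higher at 1 day and 0.34 lower at 1 week, and the remaining genes lay within 2-fold at both times. So 0 of the 9 genes were more than 2-fold higher and 1 lower at 1 day, where 4.89% of the 14190 genes with at least 50 UMIs were higher and 2.75% lower. At 1 week 1 was higher and 1 lower, where 10.6% of 14249 genes were higher and 4.30% lower. Apart from Trp63, which the study targeted, the counts of 0 and 1 genes are near those background shares. Over all barcodes with no gate the same 1 gene was lower at 1 day (background 4.17% higher, 3.64% lower) and the same 2 passed at 1 week (background 9.10% higher, 4.34% lower), with Trp63 at -1.81 and -1.61 and Cdkn2a at 1.84. The median ratio was -0.37 over the 9 genes against -0.03 over all genes tested at 1 day, and -0.34 against 0.12 at 1 week.

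**Figure D1:**
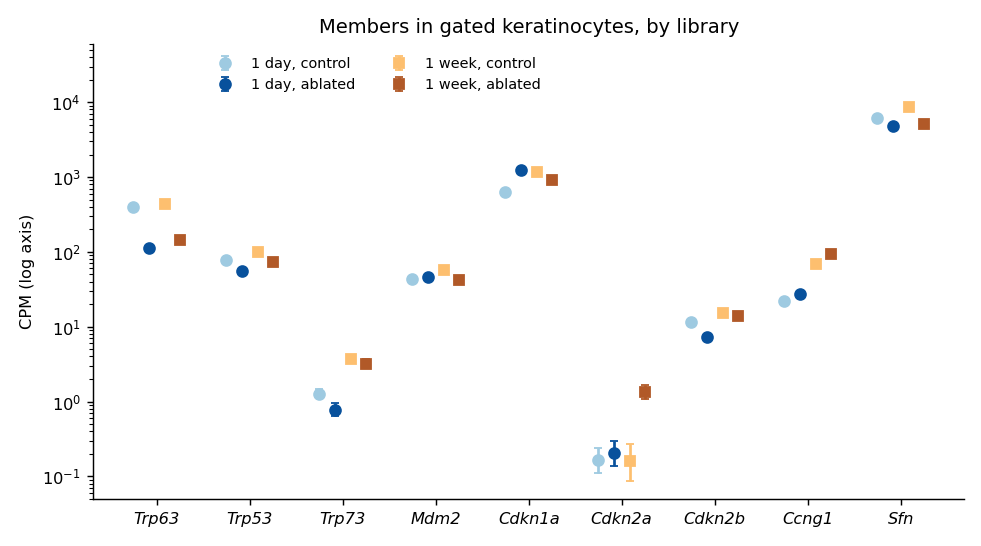
CPM (log axis) of the 9 genes in gated keratinocytes, one point per library, with 95% Poisson intervals. Trp63 is lower in both ablated libraries (114 and 144) than in the controls (400 and 440.1), and Cdkn2a is near 0.2 in all but the 1-week ablated library.

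Trp63 (chr16:25683763-25892102, plus strand, GRCm38), the ablated gene, was read at 400 CPM [397 to 403] in control and 114 [112 to 116] in ablated keratinocytes at 1 day. The 1-week levels were 440.1 [436 to 445] and 144 [141 to 147]. The ratios were -1.81 [-1.83 to -1.78] and -1.61 [-1.64 to -1.58], or 3.5-fold and 3.05-fold lower. The annotation holds ΔN transcripts, whose first exon is at 25801916-25802101, and TA transcripts, whose first exon ends at 25684351. The counts are per gene, so neither kit's table separates ΔN from TA transcripts, and 3′ reads of a transcript that lacks the floxed part would still be counted; the labels do not say which part that is. The 10 basal markers together were also lower in the ablated keratinocytes, 11498 against 6891 at 1 day and 21357 against 16717 at 1 week, and their part in the Trp63 ratio was not tested. Both ablated libraries lie on the side their labels give. In bulk sums like these, fewer cells with the transcript and less transcript per cell cannot be told apart. Cells were also compared at equal depth, which does not separate these either, since the mean was under 1 Trp63 UMI per thinned cell (0.857 and 0.244 at 1 day, 0.917 and 0.346 at 1 week). After each cell was thinned to 2000 UMIs, 51.1% of 24854 control cells had a Trp63 UMI at 1 day against 17.8% of 25054 ablated cells. At 1 week the shares were 53.9% of 9058 and 24.6% of 5626 cells. This left out the shallower cells, 4766 control and 4873 ablated at the earlier time and 12972 and 11277 at the later one. The unthinned shares of all keratinocytes were 71.9% and 28.6% at 1 day, then 55.0% and 27.1%. Of immune cells, which should lack Trp63, 8.38% (control) and 5.94% (ablated) had a UMI after thinning at the earlier time, and 4.53% and 2.19% at the later one, at median depths of 2609, 2574, 3053 and 4348 UMIs against 5023, 3982, 6038.5 and 4312 in the keratinocytes. The ablated keratinocytes thus lay between the immune background and the control keratinocytes.

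The size of the Trp63 difference varied by layer. In the basal gate Trp63 was 513 (control) and 227 (ablated) at 1 day (log2 ratio -1.18), and 599 and 252 at 1 week (-1.25). In the spinous gate, the layer above, it was 271 and 64.7 at 1 day (-2.07 [-2.12 to -2.01]), and 255 and 54.8 at 1 week (-2.22 [-2.37 to -2.07]). The granular gate, the outermost living layer, had ratios of -1.85 and -2.43. Its 1-week control barcodes had a median of only 769 UMIs and too few reached 3000 UMIs to repeat the value, so the control level of 353 there rests on shallow barcodes. The same limit holds for the 1-week granular values of the other genes. The smallest keratinocyte difference was in the bulge and outer root sheath, the follicle's stem cell region and its lower outer wall, at 457 against 323 at 1 day (-0.50 [-0.59 to -0.41]) and 539 against 384 at 1 week (-0.49 [-0.61 to -0.37]). Upper follicle (-1.03 and -0.82) and sebaceous cells (-1.16 and -0.66) lay between. Krt8-high ablated keratinocytes had 70.2 at 1 day and 62.5 at 1 week, next to the spinous level of the same libraries. In barcodes of at least 3000 UMIs the basal ratios were -1.21 and -1.12, the spinous ratios -2.10 and -2.88 and the bulge ratios -0.66 and -0.54, in the same order. Sebaceous cells had -1.12 and -1.19 [-1.66 to -0.73] there, the latter from 58 control and 93 ablated barcodes. That 1-week value was past the basal ratio, which its interval held.

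In the 1-day control library the order of Trp63 levels among the named gates was basal, bulge and outer root sheath, spinous, sebaceous, upper follicle, granular and immune. Only sebaceous (240 [221 to 260.2]) and upper follicle (227 [216 to 238]) had overlapping intervals among neighbours. In the 1-day ablated library the bulge came first at 323 and the basal gate second at 227. Upper follicle (111 [102 to 121]) and sebaceous (107 [92.3 to 124]) overlapped there, as did Krt8-high (70.2 [66.6 to 73.9]) and spinous (64.7 [62.4 to 67.0]). The immune level, 63.5 and 40.8 at 1 day and 26.6 and 16.5 at 1 week, serves as the background for these values; free RNA and barcodes with keratinocyte material cannot be told apart in it. The granular level of the 1-day ablated library, 31.5 [26.0 to 37.9], did not exceed it. In barcodes of at least 3000 UMIs the 1-day immune levels were 112 and 79.7, from 47 and 34 UMIs. The ablated spinous level there was 62.7 and did not exceed that background, which rests on few UMIs. Over all barcodes the ablated spinous level of 64.7 lay above the immune level of 40.8. Thinned to equal depth, 10.9% [10.2 to 11.6] of ablated spinous cells had a Trp63 UMI at 1 day. The share of ablated immune cells was 5.94% [3.61 to 9.12]. The spinous comparison with the background thus depends on the barcodes used.

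**Figure D2:**
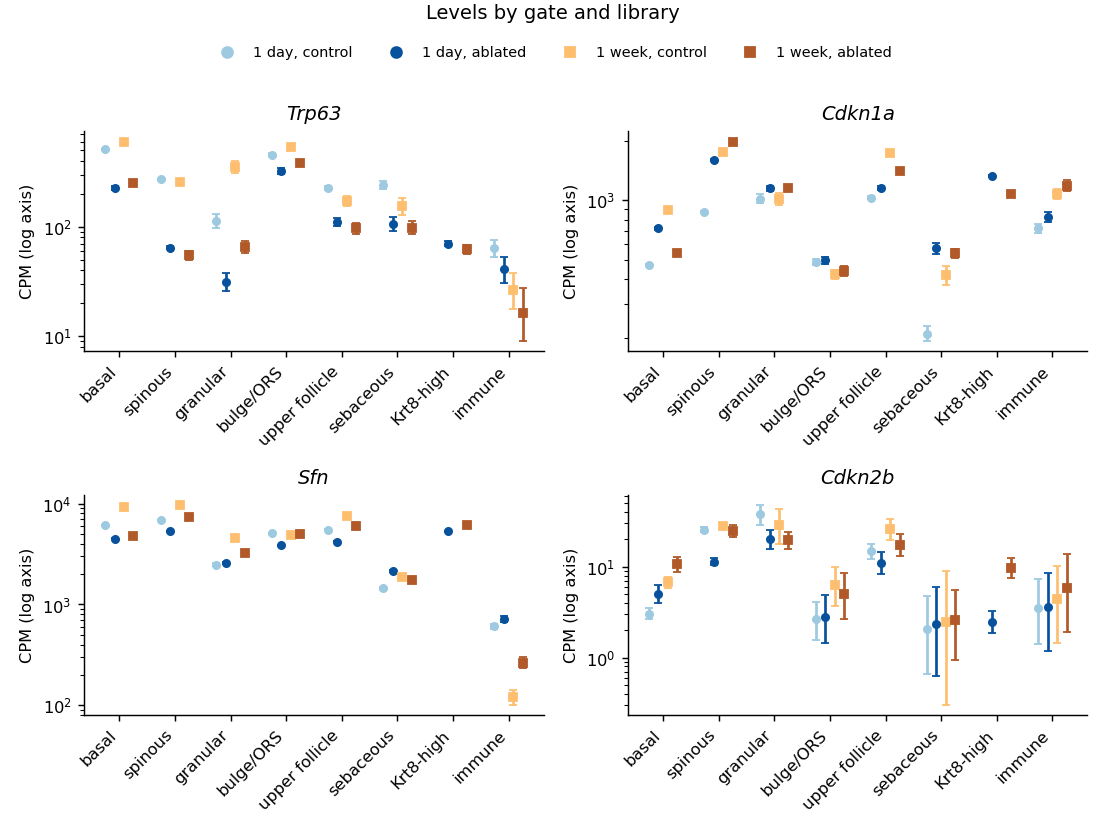
CPM (log axes) of Trp63, Cdkn1a, Sfn and Cdkn2b by gate, one point per library with 95% Poisson intervals; gates under 50 barcodes are not drawn, and ORS is the outer root sheath. Trp63 differs most in the spinous and granular gates and least in the bulge, and the order of the Cdkn1a points of control and ablated libraries is turned between 1 day and 1 week in the basal gate.

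Trp53 (chr11:69580359-69591873, plus strand), the gene of p53, was 77.7 CPM [76.4 to 79.1] in control and 56.2 [54.9 to 57.4] in ablated keratinocytes at 1 day. The 1-week values were 101 [98.7 to 103] and 73.1 [71.0 to 75.2]. The ratio was -0.47 at each time, within 2-fold. In the basal gate it was -0.41 and -0.36. The spinous values were 46.4 against 43.4 at 1 day (-0.10 [-0.19 to -0.01]) and 64.6 against 34.9 at 1 week (-0.89 [-1.09 to -0.69]). In barcodes of at least 3000 UMIs the 1-week spinous ratio was past 2-fold, -1.17 [-1.42 to -0.92]. In the bulge the intervals held 0 at both times (-0.11 [-0.32 to 0.10] and 0.04 [-0.21 to 0.28]). Trp53 was read in every class: immune cells of the 1-day libraries had 62.5 and 77.9, with a ratio of 0.32 [-0.07 to 0.70].

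Trp73 (chr4:154056253-154140208, minus strand) was sparse, with 216 UMIs in control and 106 in ablated keratinocytes at 1 day and 297 and 201 at 1 week. That is 1.28 and 0.78 CPM at 1 day (-0.72 [-1.07 to -0.38]) and 3.67 and 3.21 at 1 week (-0.19 [-0.46 to 0.07]). The UMIs were spread over 208, 106, 279 and 176 barcodes, with at most 3 in one. With the layers weighed as in the control library the ratios were -0.03 and 0.21. The highest level was in the bulge and outer root sheath of every library, at 4.70 and 4.42 at 1 day and 17.2 and 12.4 at 1 week. In the basal gate Trp73 was level at 1 day (1.90 and 1.96) and higher after ablation at 1 week, 4.65 [3.91 to 5.50] against 8.31 [6.68 to 10.2], a ratio of 0.84 [0.44 to 1.23]. In barcodes of at least 3000 UMIs the 1-week basal ratio was 1.09 [0.65 to 1.53]. The 11 markers of the bulge and outer root sheath were also higher in that ablated basal gate, 1142 against 2491, and 1574 against 2176 at 1 day; their part was not tested. Immune and stromal gates held 0 or 1 Trp73 UMI in all libraries. An antisense gene, Trp73os, overlaps Trp73 and is counted as a gene of its own; whether counting used strand is not given in the sources used here, so reads of the pair may not be fully told apart.

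Mdm2 (chr10:117688875-117710758, minus strand) was 42.9 [41.9 to 43.9] in control and 45.5 [44.4 to 46.7] in ablated keratinocytes at 1 day, a ratio of 0.09 that became -0.03 when mitochondrial and ribosomal protein genes were left out of the totals. In the 1-week libraries it was 56.9 [55.3 to 58.6] and 42.5 [40.9 to 44.2], a ratio of -0.42 [-0.49 to -0.35]. The layers did not move alike. Basal Mdm2 was 37.0 and 45.1 at 1 day (0.29 [0.17 to 0.41]) and 47.9 and 52.7 at 1 week (0.14 [-0.01 to 0.28]). Spinous Mdm2 was 54.1 and 45.8 at 1 day (-0.24 [-0.32 to -0.16]) and 74.6 and 38.3 at 1 week (-0.96 [-1.16 to -0.77]). Granular and upper follicle markers were higher in the ablated spinous gates, as given above, and their part was not tested. In both control libraries the spinous level exceeded the basal one beyond their intervals, and in the 1-day ablated library the intervals overlapped (41.9 to 48.5 and 43.9 to 47.8). In the 1-week ablated library the order was reversed, with spinous Mdm2 at 38.3 [33.7 to 43.2] and basal at 52.7 [48.4 to 57.2].

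Cdkn1a (chr17:29090976-29100727, plus strand) was 641 [637 to 644] in control and 1226 [1220.4 to 1232] in ablated keratinocytes at 1 day, a ratio of 0.94 [0.93 to 0.95]. A week after ablation it was 1154 [1147 to 1162] in control and 914 [906 to 921] in ablated keratinocytes, a ratio of -0.34 [-0.35 to -0.32]. The ablated library was thus the higher of the pair at 1 day and the lower at 1 week. At equal depth 60.0% of control and 80.2% of ablated keratinocytes had a Cdkn1a UMI at 1 day, with a mean of 1.21 and 2.40 UMIs per cell. At 1 week 76.1% and 68.1% had one, with means of 2.07 and 1.74.

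By layer, Cdkn1a at 1 day was higher after ablation in basal (473 against 724, ratio 0.62), spinous (872 against 1600.5, 0.88) and sebaceous cells (211 against 571, 1.44 [1.28 to 1.59]). In the bulge it was level, 485 and 497 (0.03 [-0.04 to 0.11]). Granular (0.17 [0.09 to 0.25]) and upper follicle cells (0.16 [0.11 to 0.21]) had small ratios. The bulge had the smallest 1-day ratio of both genes among these 6 gates, -0.50 for Trp63 and 0.03 for Cdkn1a. Granular cells had -1.85 for Trp63 and 0.17 for Cdkn1a. Sebaceous cells had -1.16 for Trp63 and the highest Cdkn1a ratio of these 6 gates. Whether the 2 ratios go together over the gates was not tested. At 1 week basal Cdkn1a was lower after ablation, 895 against 540.3 (-0.73 [-0.77 to -0.69]), while spinous Cdkn1a was slightly higher, 1768 against 1967 (0.15 [0.13 to 0.18]). The bulge was level again, 421 and 441 (0.07 [-0.05 to 0.18]). Sebaceous cells were again higher after ablation (0.37 [0.20 to 0.55], and 0.78 [0.55 to 1.01] at 3000 UMIs or more), granular cells had 0.18 [0.07 to 0.29], and the upper follicle -0.31 [-0.38 to -0.25]. Keratinocytes of no layer followed the basal direction at both times (0.81 and -0.36). In barcodes of at least 3000 UMIs the basal ratios were 0.63 and -0.84 and the spinous ratios 0.89 and 0.24. The 1-day sebaceous ratio in such barcodes was 1.35 [1.19 to 1.52]. The whole 1-day sebaceous gates differed in depth, with medians of 6258.5 (control) and 3183 (ablated) UMIs. The part of depth in their Cdkn1a ratio was not tested. Outside keratinocytes, Cdkn1a was 719.7 against 1031 in the 1-week fibroblasts (0.52 [0.33 to 0.71]). In immune cells the ratios were 0.19 [0.08 to 0.31] and 0.14 [0.02 to 0.26], but -0.19 [-0.43 to 0.05] and 0.03 [-0.11 to 0.17] in barcodes of at least 3000 UMIs. The 1-day immune gates also differed in makeup, with T cells 577 of 1101 control and 69 of 578 ablated barcodes.

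Other measures also differed between the libraries, not all in the direction of Cdkn1a. Spinous and granular markers summed to 26714 and 2123 CPM in control keratinocytes at 1 day against 31693 and 7691 in ablated ones. At 1 week spinous markers were 21601 (control) and 16640.3 (ablated), and granular markers 1616 and 9689. Spinous markers were thus higher after ablation at 1 day and lower at 1 week, as Cdkn1a was, and granular markers higher at both times. The 9 markers of Langerhans cells, which read Cdkn1a too, summed to 158 and 228 in keratinocytes at 1 day and to 432 and 548 at 1 week. With the layers weighed as in the control library, the Cdkn1a ratio was 0.72 at 1 day and -0.19 at 1 week. The 18 cycling markers summed to 463 and 500.2 in the basal gate at 1 day, and to 698 and 1197 at 1 week, when basal Cdkn1a was lower. Their part in the Cdkn1a values was not tested.

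**Figure D3:**
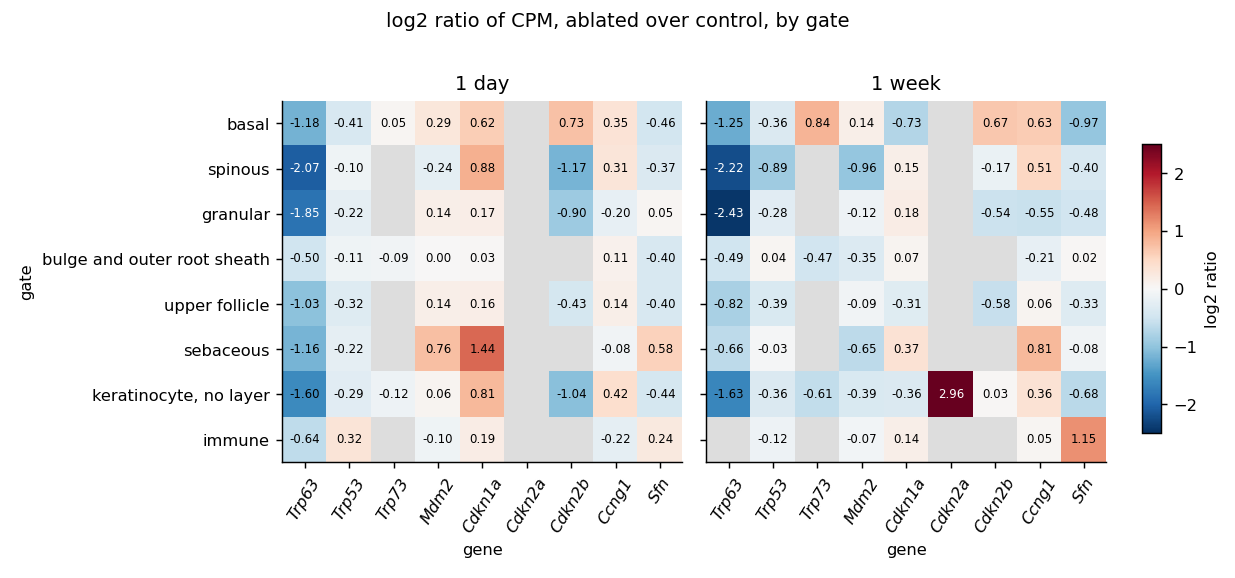
Log2 ratio of CPM, ablated over control, for each gene (columns) in each gate (rows) at both times; grey cells have under 50 UMIs over both libraries or under 50 barcodes in one. Trp63 is negative in every filled cell, and Cdkn1a, Cdkn2b and Mdm2 change colour between the basal and spinous rows at one time or the other.

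Cdkn2b (chr4:89306299-89311039, minus strand) was 11.6 [11.1 to 12.1] in control and 7.20 [6.76 to 7.67] in ablated keratinocytes at 1 day (-0.69 [-0.80 to -0.57]). That ratio was smaller, -0.30, without the deepest 10% of barcodes and -0.31 as a mean over barcodes. The 1-week levels of 15.3 and 14.1 differed by a ratio whose interval held 0 (-0.12 [-0.25 to 0.01]). It was a gene of the upper layers in control skin: at 1 day 3.04 in basal, 25.6 in spinous and 37.6 in granular cells, and at 1 week 6.71, 28.0 and 28.5. After ablation the basal level was higher, 5.03 at 1 day (0.73 [0.34 to 1.10]) and 10.6 at 1 week (0.67 [0.32 to 1.01]). The spinous level was lower at 1 day, 11.4 (-1.17 [-1.32 to -1.02]), and at 1 week 24.8, with an interval that held 0 (-0.17 [-0.43 to 0.07]). The gap between basal and spinous cells was therefore narrower in both ablated libraries. In the ablated basal gate the markers of other layers were also higher. The 10 spinous markers were 5258 against 7176 at 1 day and 2846 against 4361 at 1 week, the 12 granular markers 227 against 1444 and 63.2 against 1161, and the 8 upper follicle markers 2103 against 3143 and 2015 against 7219. Their part in the basal Cdkn2b level was not tested. Krt8-high ablated cells had 2.49 at 1 day and 9.69 at 1 week.

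Cdkn2a (chr4:89274471-89294653, minus strand), 11646 bases from Cdkn2b, had 28 UMIs in control and 28 in ablated keratinocytes at 1 day (0.31 [-0.50 to 1.12]). At 1 week it had 13 UMIs in control and 84 in ablated keratinocytes, or 0.161 [0.0855 to 0.275] and 1.34 [1.07 to 1.66] CPM. The ratio was 3.06 [2.21 to 4.03]. The 84 UMIs came from 58 of 16903 barcodes, with at most 8 in one, and the 13 from 12 of 22030. Barcodes with a Cdkn2a UMI were deeper than most, with a median total of 13636 UMIs in the control and 3386.5 in the ablated keratinocytes. By gate, 46 of the 84 lay in keratinocytes of no layer, 20 in Krt8-high cells (3.03 CPM [1.85 to 4.68]), 8 in spinous and 7 in basal cells. The 11 Krt8-high barcodes with one had a median total of 20971 UMIs, against 2675 for that gate. Cdkn2a was not particular to keratinocytes. The 1-week fibroblasts had 13.5 [6.76 to 24.2] in control and 19.0 [7.63 to 39.1] in ablated skin, from 11 and 7 UMIs. The 7 fibroblast markers summed to 105 CPM in control and 82.7 in ablated keratinocytes at 1 week, but 50.1 and 69.0 in the basal gate. In keratinocytes of no layer they were 199 (control) and 128 (ablated), and in the ablated Krt8-high gate 36.6. Endothelial markers (8.62 against 23.3) and smooth muscle markers (11.9 against 31.7) were higher in the ablated keratinocytes. The 1-week immune gate held 6 (control) and 3 (ablated) Cdkn2a UMIs. In keratinocytes of no layer Langerhans markers were 843 (control) and 892 (ablated) and shared immune markers 55.8 and 67.4. T cell markers there went the other way, 131 and 75.1. The part of these markers was not tested; the 1-week endothelial gate itself held 0 Cdkn2a UMIs in both libraries. The counts do not separate p16INK4a from p19ARF.

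Ccng1 (chr11:40748552-40755311, minus strand) was higher after ablation at both times, at 22.1 [21.4 to 22.9] and 27.1 [26.2 to 27.9] at 1 day (0.29 [0.22 to 0.36]). The 1-week levels were 68.3 [66.5 to 70.1] and 94.4 [92.0 to 96.9] (0.47 [0.41 to 0.52]). This held in basal (0.35 and 0.63) and spinous cells (0.31 and 0.51). It did not extend to every gate: bulge intervals held 0 (0.11 [-0.27 to 0.48] and -0.21 [-0.49 to 0.06]), and the granular ratio was -0.55 [-1.01 to -0.05] at 1 week. That granular ratio rests on shallow control barcodes, as for Trp63. Sebaceous cells had -0.08 [-0.54 to 0.37] at 1 day and 0.81 [0.45 to 1.18] at 1 week.

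Sfn (chr4:133600556-133602168, minus strand) was 6191 in control and 4799 in ablated keratinocytes at 1 day (-0.37) and 8666 and 5070.3 at 1 week (-0.77). At equal depth a UMI was found in 99.0% of control and 98.9% of ablated keratinocytes at 1 day, and in 98.0% and 95.9% at 1 week. These shares are close to their ceiling and do not resolve levels; immune cells, which should lack Sfn, had a UMI in 54.9% and 54.4% of cells at 1 day and in 16.5% and 12.4% at 1 week. The number per thinned keratinocyte had a median of 12 UMIs in control against 9 in ablated cells at 1 day and of 17 against 9 at 1 week. The basal ratios were -0.46 and -0.97 and the spinous ratios -0.37 and -0.40. In the bulge the ratio was -0.40 at 1 day and 0.02 [-0.01 to 0.06] at 1 week. In bulge barcodes of at least 3000 UMIs it was -0.44 and -0.11 [-0.15 to -0.07]. Sebaceous cells went the other way at 1 day, 1442 against 2148 (0.58 [0.51 to 0.64]). In sebaceous barcodes of at least 3000 UMIs the 1-week ratio was -0.02 [-0.19 to 0.16]. Granular barcodes of that depth were not lower at 1 day, 2512 against 2625 (0.06 [0.01 to 0.12]). The immune cells read 606 and 714 in the 1-day pair and 119.7 and 265 in the 1-week pair. Those values serve as the background for Sfn outside keratinocytes; whether they come from free RNA or from barcodes that hold keratinocyte material was not tested.

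At 1 day the cells carried antibody hashtags, of which 3 were in use; the labels do not say what each marks. Taking keratinocytes led by 1 tag by a log2 gap over 1 gave 3 subgroups per library of 3174 to 5831 barcodes, while 12728 control and 19779 ablated keratinocytes had no leading tag. The subgroups are not taken as replicates and carry no test. Of the 8 genes with at least 50 UMIs, 2 were higher in all 3 ablated subgroups than in any control subgroup and 4 were lower. Over 13084 genes 16.8% were higher and 20.6% lower in this way. The higher ones were Cdkn1a, 573 to 741 in control against 1148 to 1428 in ablated subgroups, and Ccng1, 20.7 to 24.8 against 26.6 to 29.7, where the nearest intervals overlap (23.1 to 26.5 and 24.4 to 28.9). The lower ones were Trp63, 379.8 to 418 against 102 to 119.8, Sfn, 5885 to 6693 against 4596 to 5062, Cdkn2b, 12.3 to 12.9 against 5.26 to 7.68, and the sparse Trp73, 0.891 to 1.20 against 0.431 to 0.806, with overlapping intervals. Trp53 overlapped, with 67.0 to 97.0 in control and 49.9 to 71.6 in ablated subgroups, as did Mdm2, with 37.9 to 51.0 and 43.6 to 47.8. Every subgroup had almost no Xist (0 to 0.0948 CPM) and Y-linked genes at 157 to 182.

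**Figure D4:**
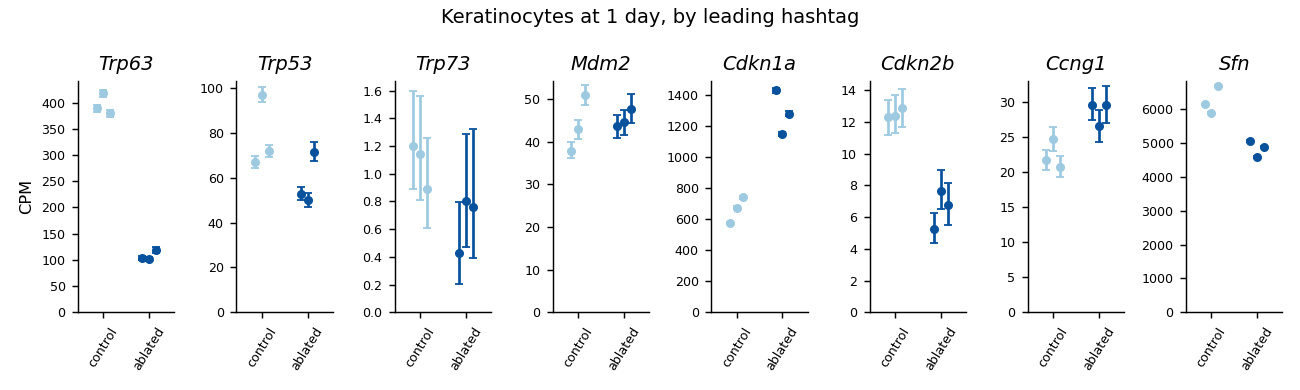
CPM in 1-day keratinocytes by leading hashtag, 3 subgroups per library, with 95% Poisson intervals; Cdkn2a, with under 50 UMIs, is not drawn. Points and intervals of control and ablated subgroups separate for Trp63, Cdkn1a, Cdkn2b and Sfn. For Ccng1 and Trp73 the points separate but intervals overlap, and for Trp53 and Mdm2 the points overlap.

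Barcodes with at least 3 UMIs of 18 G2 and M phase genes and 5 times their mean share were called cycling. They were 4.40% of control and 4.74% of ablated keratinocytes at 1 day and 2.02% and 5.54% at 1 week. These shares were not thinned to equal depth. The cycling barcodes were drawn unevenly from the layers: 1113 of 1304 lay in the basal gate and 6 in the spinous gate of the 1-day control, and 248 of 445 and 9 in those of the 1-week control. Over all layers Cdkn1a was lower in cycling than in other keratinocytes of every library, 465 against 652 and 789 against 1254 at 1 day, and 839.6 against 1168 and 559.5 against 945 at 1 week. Cdkn2b was lower as well, 3.79 against 12.1 and 2.48 against 7.50 at 1 day, and 5.60 against 15.7 and 9.22 against 14.5 at 1 week. Trp53 was higher in cycling cells, 113 against 75.4 and 77.1 against 54.8 at 1 day, and 151 against 98.7 and 107 against 70.0 at 1 week. Trp63 was 410.5 [398 to 423] against 399 [396 to 402] and 119.7 [112 to 127] against 114 [112 to 116] at 1 day, with overlapping intervals. At 1 week it was higher in the cycling control cells, 492 [469 to 516] against 438 [433 to 443], and 155 [144 to 166] against 143 [140.1 to 146] in the ablated library.

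Within the basal gate alone the gaps in Cdkn1a and Trp53 were smaller. Basal Cdkn1a was 460.4 [447 to 475] in cycling against 475 [469 to 480.1] in other barcodes of the 1-day control and 915 [878 to 953] against 893 [882 to 904] in the 1-week control, with overlapping intervals. A gap beyond the intervals was left in the 1-day ablated library, 591 [558 to 624] against 744 [730.2 to 759], while the 1-week ablated values were 511 [478 to 546] and 546 [531 to 562]. Basal Trp53 was 115 [108 to 122] against 103 [100.2 to 105] in the 1-day control, and its intervals overlapped in the other libraries (82.8 and 78.0, 146 and 132, 104 and 104). Basal Cdkn2b was 2.76 against 3.08 and 1.88 against 5.50 at 1 day, and 5.09 against 6.86 and 10.9 against 10.6 at 1 week, with overlapping intervals in each library and only 4 to 25 UMIs in the cycling barcodes. Trp63 was lower in cycling basal cells of every library, 418 against 527 and 154 against 237 at 1 day, and 480.2 against 611 and 206 against 261 at 1 week. Basal Ccng1 had overlapping intervals in 3 libraries (26.1 against 22.6, 32.5 against 29.0 and 78.3 against 71.2) and was higher in the cycling cells of the 1-week ablated one, 141 [124 to 159.9] against 105 [98.7 to 112]. The cycling basal cells of the 1-day ablated library had more Cdkn1a (591) than the other basal cells of the control (475).

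**Figure D5:**
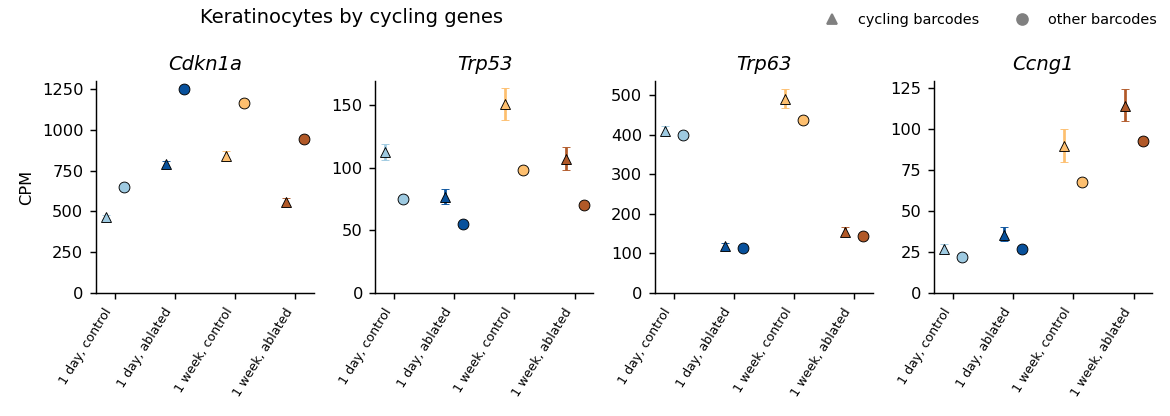
CPM of Cdkn1a, Trp53, Trp63 and Ccng1 in keratinocytes, with triangles for cycling and circles for other barcodes of each library and 95% Poisson intervals. Over all layers Cdkn1a is lower and Trp53 and Ccng1 are higher in the cycling barcodes of all 4 libraries, which are mostly basal cells in the controls.

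Within a library, keratinocytes thinned to 2000 UMIs were divided by whether they had a Trp63 UMI. Cdkn1a was lower in those with one, 562 [553 to 571] against 646 [636 to 656] in the 1-day control and 930.3 [910.4 to 950.5] against 1259.7 [1249 to 1271] in the 1-day ablated library. The 1-week values were 955 [936 to 975] against 1126 [1103 to 1149] in the control and 656 [627 to 687] against 943 [922 to 964] in the ablated library. Within the basal gate alone the control libraries showed almost no such gap, 487 against 481 at 1 day and 881 against 904 at 1 week. The spinous gates of the controls did, 773 [746 to 801] against 843 [819.9 to 867] and 1441 [1381 to 1503] against 1677 [1625 to 1731]. So did the ablated basal gates, 661 [626 to 697] against 781 [756 to 807] and 466 [415 to 522] against 591 [546 to 637], and the ablated spinous gates, 1405 against 1593 and, from 33 cells with a Trp63 UMI, 1212 [961 to 1509] against 2288 [2177 to 2403]. In the ablated Krt8-high gate the values were 1129 [1064 to 1197] against 1349 [1322 to 1375] at 1 day, and 1112 [941 to 1306] against 1140.4 [1070.2 to 1214] at 1 week, where the intervals overlapped. Basal Sfn in cells with against without a Trp63 UMI was higher in both controls, 6389 [6347 to 6432] against 6085 [6037 to 6133] at 1 day and 9445 [9355 to 9535] against 9203 [9089 to 9319] at 1 week. After ablation it was 4610.2 [4518 to 4704] against 4728 [4665 to 4791] at 1 day, with overlapping intervals, and lower in cells with a UMI at 1 week, 4624 [4461 to 4792] against 5019.7 [4889 to 5153]. A cell without a Trp63 UMI at this depth may still hold the transcript, so the division is of detection and not of genotype.

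The wider pathway was read from lists of genes in keratinocytes, with the same 2-fold rule. For every list the shares over all genes are those given above, 4.89% higher and 2.75% lower at 1 day and 10.6% and 4.30% at 1 week, so 0 or 1 gene past the fold in a short list is near the background. Of 22 further p53 targets, 2 were higher and 1 lower at 1 day, against background shares of 4.89% and 2.75%, with a median of 0.06 against -0.03 for all genes. The higher ones were Pmaip1 (Noxa, a pro-apoptotic BH3 protein; 22.1 against 71.5, ratio 1.69) and Btg2 (an antiproliferative factor; 444 against 1083, 1.29). The lower one was Phlda3, an inhibitor of Akt (103 against 44.6, -1.21), and Ercc5, a DNA repair nuclease, followed at -0.59. At 1 week 1 of 22 was higher (background 10.6%), the kinase gene Plk3 (32.0 against 121, 1.92), and none lower, with a median of 0.01 against 0.12. Its relative Plk2 had 0.84, and the death receptor gene Fas (-0.94) and Rrm2b (-0.36) were at the low end. Bax, a pore-forming death effector, had 0.03 and 0.55, and Bbc3 (Puma) -0.06 and 0.47. Of the 22 ratios, 12 were positive and 10 negative at 1 day, and 11 and 11 at 1 week.

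Of 14 listed p63 targets, 5 were more than 2-fold lower at each time and none higher, where 2.75% and 4.30% of all genes were lower, with medians of -0.68 and -0.81 against -0.03 and 0.12 for all genes. Col17a1, the hemidesmosomal collagen, was lowest at both times (754 against 263, -1.52, and 917 against 270.2, -1.76). Next were the cadherin gene Cdh3 at 1 day (-1.33) and Dst, which encodes an epidermal plakin, at 1 week (-1.65). Lamb3, a laminin chain, was past the fold at both times (-1.07 and -1.29). The highest ratios were those of Fras1 (0.59 and 0.75), Fgfr2 at 1 day (0.09) and Pthlh at 1 week (0.85). Perp, a desmosomal gene that both p53 and p63 are known to induce, was at -0.02 and -0.22. Several of these are also basal markers and keratinocyte gate genes, so the gates and this list are not independent. Basal barcodes were 41.6% of all barcodes in control and 12.7% in ablated skin at 1 day, and 27.0% and 14.7% at 1 week. The part of layer makeup in the ratios of this list was not tested.

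None of 15 regulators of p53 and p63 passed 2-fold at either time (background 4.89% higher and 2.75% lower at 1 day, 10.6% and 4.30% at 1 week). The 1-day extremes were the kinase genes Atr (-0.53) and Chek2 (-0.38), and Ppp1r13b (0.36) and Trp53bp2 (0.21), which encode p53-binding ASPP proteins. At 1 week they were Usp7 (-0.55), a deubiquitinase of p53 and Mdm2, Trp53bp2 (-0.33), and the checkpoint kinase genes Chek1 (0.82) and Chek2 (0.44). Mdm4, the relative of Mdm2, was at -0.13 and -0.22.

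Next came the cell cycle lists. At 1 day none of 13 S phase and 18 G2 and M phase genes passed 2-fold (background 4.89% higher, 2.75% lower), with Mcm3 (0.38), Mcm5 (0.10), Mcm7 (-0.22) and Tyms (-0.38) at the ends of the first list and Plk1 (0.48), Ccnb1 (0.40), Mki67 (-0.11) and Top2a (-0.19) at the ends of the second. At 1 week 11 of 18 G2 and M phase genes and 3 of 13 S phase genes were more than 2-fold higher, against 10.6% of all genes, and none lower. Plk1 (3.19 against 13.7, 2.11) and Aurka (1.61), kinases of mitosis, led the first, and Cenpf (0.16) and Top2a (0.45) were its lowest. Rrm2 (1.74) and Mcm5 (1.46), both of DNA replication, led the second, with Mcm4 (0.57) and Pcna (-0.13) lowest. Of 12 genes of G1 cyclins, their kinases and the Rb family, none passed 2-fold at 1 day, when Ccne1 (0.70), Ccne2 (0.49), Cdk6 (-0.54) and Ccnd2 (-0.64) were at the ends. At 1 week Ccne1 (1.41) and E2f1 (1.25) were higher and cyclin D2 gene Ccnd2 lower (252 against 109, -1.20), so 2 and 1 of 12, where 10.6% and 4.30% of all genes were. Rb1 was at -0.56.

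Of 5 other CDK inhibitors, none passed 2-fold at 1 day, from Cdkn1b (p27) at 0.27 and Cdkn2d at 0.12 to Cdkn3 at 0.05 and Cdkn2c at -0.13. At 1 week all 5 had positive ratios, with 1 of them, the phosphatase gene Cdkn3, past the fold (7.14 against 15.3, 1.10; background 10.6%), Cdkn2c at 0.77, Cdkn1c (p57) at 0.61 and Cdkn1b at 0.46. Cdkn1a (-0.34) and Cdkn2b (-0.12, but 0.03 to 0.07 under 3 alternatives) were the CDK inhibitors with a negative ratio at that time. Among 8 partners of growth arrest and quiescence, which also hold Cdkn1b, 2 were higher at 1 day, where 4.89% of all genes were: Ccng2, the relative of Ccng1 (13.5 against 40.8, 1.60), and Foxo3 (15.1 against 41.9, 1.47), while Gadd45b (-0.13) and Klf4 (-0.11) were lowest. None passed 2-fold at 1 week, where Gadd45g (0.87), Foxo3 (0.85), Btg1 (-0.18) and Gadd45b (-0.46) were at the ends. None of the 6 other 14-3-3 genes passed 2-fold at either time, which is near the same background, and nor did Sfn. Their ratios ran from -0.03 (Ywhaq) and -0.02 (Ywhah) to 0.20 (Ywhae) and 0.41 (Ywhaz) at 1 day, and from -0.31 (Ywhag) and -0.25 (Ywhaz) to 0.21 (Ywhah) and 0.30 (Ywhaq) at 1 week, beside -0.37 and -0.77 for Sfn.

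As a description of pattern, levels were correlated across the 45 gates of at least 50 barcodes in the 4 libraries, by Pearson's r of log2(CPM + 5), among 11123 genes. The gates share libraries and depth, and they span the 3′ kit (22 gates) and the 5′ kit (23 gates), whose levels differ. The genes most like Trp63 were Col17a1 (0.91), Fxyd3 (0.90), Krt15 (0.89), Plch2 (0.88) and Ppp1r14c (0.88), of which Col17a1 and Krt15 are basal gate markers. Those most like Cdkn1a were Chmp4b (0.80), Cltc (0.79), Fam129b (0.78), Map7d1 (0.74) and Srxn1 (0.73). Those most like Sfn were Lypd3 (0.97), Serpinb5 (0.97), Pkp1 (0.97), Perp (0.96) and S100a14 (0.96), of which Pkp1 and Perp are keratinocyte gate markers. Between the genes themselves, Trp63 had 0.80 with Sfn, 0.60 with Trp73 and -0.34 with Cdkn1a, and Cdkn1a had 0.46 with Cdkn2b. Trp73 stayed under the added 5 CPM in every 1-day gate, so its r rests on small differences. Within 1 time point, and so within 1 kit, the r of the 5 genes with Trp63 ran from 0.78 to 0.86 at 1 day and from 0.92 to 0.96 at 1 week. Those with Cdkn1a ran from 0.77 to 0.84 and from 0.70 to 0.79, and those with Sfn from 0.92 to 0.97 and from 0.97 to 0.99. Trp63 with Sfn was 0.66 at 1 day and 0.84 at 1 week, with Trp73 0.72 and 0.68, and with Cdkn1a -0.37 and -0.29. Cdkn1a with Cdkn2b was 0.46 and 0.39.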

How the data were processed

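Single-cell RNA was measured in 4 libraries of mouse epidermis, 1 per group. The deposited values are whole-number UMI counts per gene and barcode, made by the authors with Cell Ranger 5.0.1 on mm10 (Seurat is also named), per the submitters' processing notes; alignment, cell calling and strand settings are not given in the sources used here. The 1-day matrices also hold deposited hashtag counts. All deposited barcodes were used. Keratinocytes needed more than 0.3 times the mean keratinocyte marker share, or the sebaceous markers. A non-keratinocyte class needed at least 3 of its markers, 5 times the mean marker share of the time point and at most 0.3 times the mean keratinocyte marker share. Barcodes of more than 1 lineage were set aside, which was also the treatment of doublets; no caller was run. Granular, sebaceous and follicle gates needed 3 markers and 5 times the mean share, basal and spinous gates at least the mean share and 2 times that of the other layer, and the Krt8-high gate 3 UMIs of Krt8 and Krt18 and 5 times their mean share. These thresholds were set after the data were seen. The genes and lists were chosen with earlier results of these data known. Named were the 9 genes, in each list the 2 highest and 2 lowest ratios at each time among genes of at least 50 UMIs, and the 5 genes most like Trp63, Cdkn1a and Sfn; Bax, Bbc3, Perp, Mdm4 and Lamb3 were added after their values were seen. The ratio, its interval and the 2-fold call were tested on simulated data. A count of 0 allows up to 3 UMIs. PCR copies were collapsed by UMI, and intervals cover counting error only. Alternatives were other totals, TMM (edgeR 4.0.16), mitochondrial and depth limits, other sets of barcodes and per-barcode means. Gene positions are from GENCODE M21 (GRCm38), which held 99.8% of the gene IDs. Python 3.11.15, numpy 2.4.6, scipy 1.17.1 and R 4.3.3 were used.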

Additional observations from a re-analysis of the deposited data

Results flagged for a closer look

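These results were picked out because the ablated-to-control ratio had opposite signs, with counting intervals that excluded 0, between the basal and spinous gates of one time point, or between the 2 times in keratinocytes as a whole. Other pairs of gates were not searched. None of the differences was tested, since each group is 1 library, and the times also differ in kit and in the reads of sex-linked genes.

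Cdkn1a had a ratio of 0.94 in keratinocytes at 1 day and -0.34 at 1 week, and at 1 week -0.73 in basal against 0.15 in spinous cells. Mdm2 had 0.09 at 1 day and -0.42 at 1 week in keratinocytes, and at 1 day 0.29 in basal against -0.24 in spinous cells; the keratinocyte value at 1 day turned to -0.03 with mitochondrial and ribosomal protein genes left out of the totals. Cdkn2b had 0.73 in basal and -1.17 in spinous cells at 1 day.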

How the results depend on the processing

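No paired analysis was possible because each group is 1 library. The log2 ratio of Trp63 in keratinocytes, -1.81 at 1 day and -1.61 at 1 week, stayed past 2-fold lower under each of 11 alternatives at both times. At 1 day it was -1.92 with totals without mitochondrial and ribosomal protein genes, -1.90 at 3000 UMIs or more, -1.86 without the deepest 10% of barcodes, -1.72 without the Krt8-high gate and -1.34 with layers weighed as in the control library. At 1 week these were -1.70, -1.68, -1.42, -1.52 and -1.42, with -1.73 under TMM scaling and -1.56 as a mean over barcodes. The layer weights also left out the Krt8-high gate. The last 2 cell choices (no Krt8-high gate, layer weights) and leaving out shared barcodes were added after seeing the data. The count of genes more than 2-fold higher at 1 day was 1 (Cdkn1a) in place of 0 without the deepest barcodes and as a mean over barcodes, and the count lower was 2 by that mean, with Trp73 at -1.05 added. At 1 week the count higher was 0 without the deepest barcodes, where Cdkn2a had fewer than 50 UMIs but a ratio of 3.90. Mdm2 at 1 day turned to -0.03 with totals without mitochondrial and ribosomal protein genes. Of 176 alternative values of the other 8 genes, 114 lay within the counting interval of the reported value, 61 outside it with the sign kept wherever that interval excluded 0, and 1 (Mdm2) turned. Among values whose interval held 0, Trp73 at 1 week turned to 0.21 with layers weighed and 0.10 at 3000 UMIs or more, Cdkn2b at 1 week to 0.07 as a mean over barcodes, 0.06 without the deepest barcodes and 0.03 with layers weighed, and Cdkn2a at 1 day to -0.05 without the deepest barcodes. TMM moved every 1-week ratio by -0.11, taking the median of all genes from 0.12 to 0.00. The other totals moved every ratio by -0.11 at 1 day. Cdkn2a (13 to 84 UMIs in keratinocytes of a library) and Trp73 (106 to 297) rest on the fewest counts of the 9 genes, which limits their precision. The correlations within 1 time point and the cycling comparison within the basal gate were also added after seeing the data. Cause was not tested in any of these.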
